A study of Malus domestica with 18 samples.

Results

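Skin of "Golden Delicious" apple that matured inside a paper bag was compared between 60 and 150 days after flowering, DAF60 (group T2) and DAF150 (group T3). The comparison took 6 of the 18 RNA-seq libraries of the series, T2 replicates 1 to 3 and T3 replicates 1 to 3, by their labelled treatment and stage and not by any measured value. Gene levels are in FPKM, a count of read fragments corrected for gene length and library size. Of the 2856 genes in the deposited table, the 1399 with at least 1 FPKM in at least 3 of the 18 libraries were tested, and 1457 were below this minimum.

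The fruits were enclosed at DAF20 in bags that let no light through, and unbagged fruits (CK) served as controls, with CK2 at DAF60 and CK3 at DAF150. DAF150 was the ripening stage, and T1 held bagged fruit of DAF30. Each sample pooled the peeled skin of 3 fruits, and each group had 3 libraries. The study used 3 trees as replicates of each treatment, and whether the same trees were sampled at both stages is not given, so p-values measure the spread between these samples. The table holds only genes that the authors called between all bagged and all unbagged libraries, 610 of them higher and 2246 lower in bagged skin. The T2 and T3 libraries entered that selection, so the counts given here describe the selected genes and no genome-wide share.

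Apple skin consists of an epidermis under a cuticle of cutin and wax, with layers of small cells beneath. Young epidermal cells divide, expand and lay down cuticle, whereas at ripening growth has ended, walls are remodelled and sugars are redistributed. Light drives the pigments of the skin, chlorophyll and flavonoids.

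The 2 stages of bagged skin were far apart. In limma, 116 genes were DEGs with higher expression in T3 (8.29% of the 1399 tested) and 89 were DEGs with lower expression (6.36%), where a DEG had an adjusted p no higher than 0.001 and at minimum a fold of 2. With the threshold for list members, an adjusted p up to 0.05, 254 genes rose (18.2%) and 227 fell (16.2%). The T2 and T3 libraries of all 205 DEGs did not overlap, as was also the case for 29% of all tested genes with T3 above T2 and 30.3% with T3 below. Lack of overlap was also a condition for the 15 largest rises and 15 largest falls named below, so for these it is no separate result. The median difference, T3 minus T2 on the log2(FPKM + 1) scale used throughout, was 2.38 over the higher and -2.15 over the lower DEGs, against -0.02 over all tested genes. Of the 116 higher DEGs, 57 lay under 1 FPKM in every T2 library, and of the 89 lower DEGs, 39 lay under 1 FPKM in every T3 library. Correlations across the tested genes were 0.934 to 0.959 between T2 libraries, 0.921 to 0.938 between T3 libraries and 0.591 to 0.693 between a T2 and a T3 library.

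The count of DEGs depended on the libraries in the fit. Fitted on the 6 libraries of T2 and T3 alone, limma called 40 higher and 25 lower DEGs, and 62 of these 65 were among the 205. The 89 lower DEGs became 52 without T2 replicate 2, 57 without T2 replicate 3 and 50 without T3 replicate 3.

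**Figure D1:**
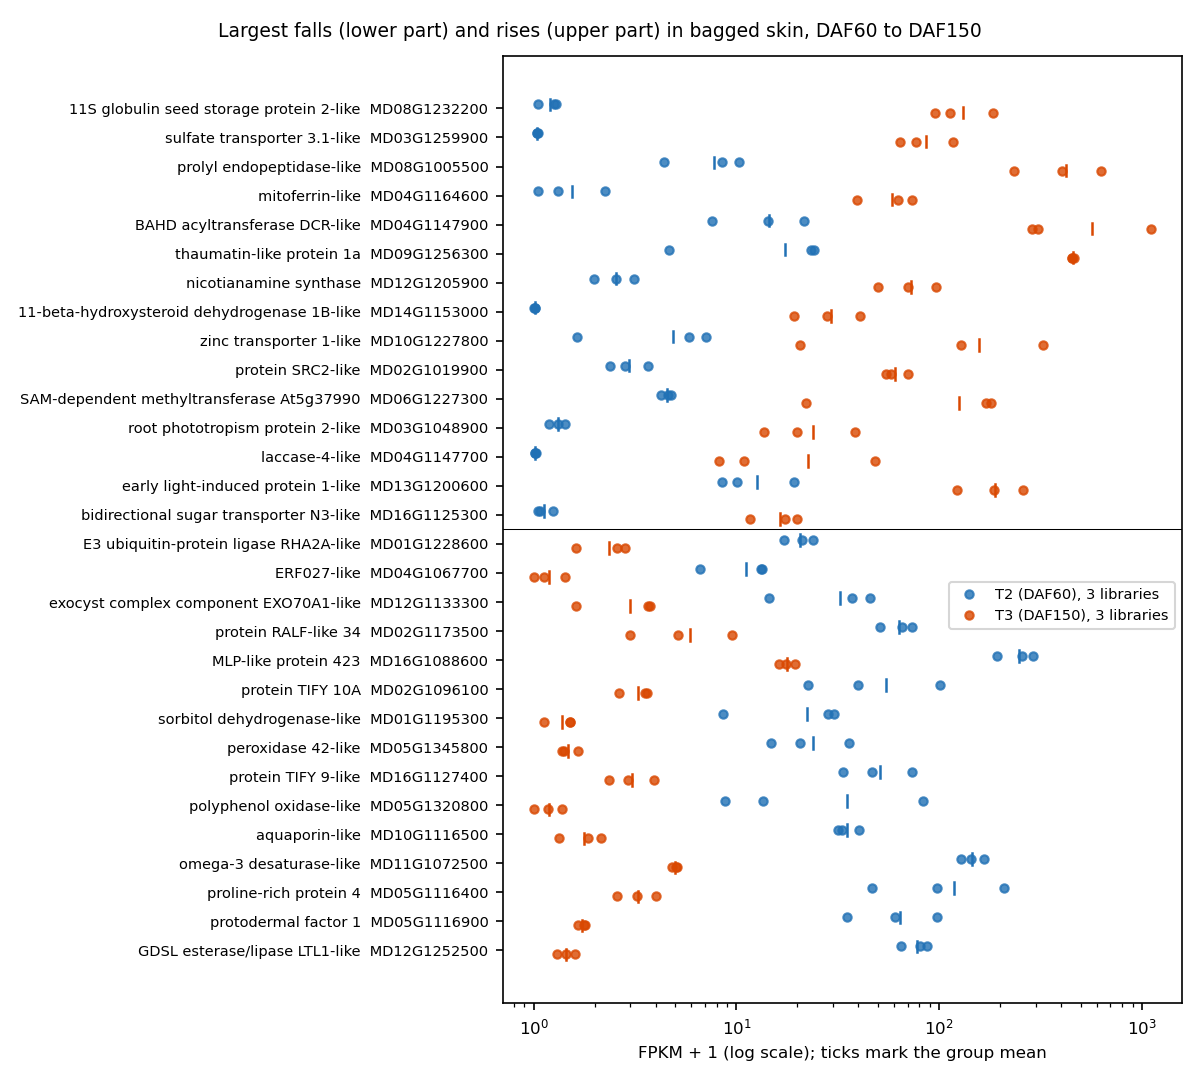
FPKM + 1 on a log axis in each of the 3 T2 libraries (blue) and 3 T3 libraries (orange) for the 15 largest falls and the 15 largest rises among DEGs whose higher group averaged 5 FPKM or more, with ticks at the group means. Rows were required to have no overlap of T2 and T3 libraries, so the colours do not overlap in any of the 30 rows. The largest changes are a log2 difference of -5.74 (GDSL esterase/lipase LTL1-like) and 6.72 (11S globulin).

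Markers of other cells that a peel can hold moved unequally. The summed level of 22 genes of xylem and fibre was 10.4 to 13.4 FPKM in T2 and 29.98 to 160 FPKM in T3, with 4 of the 22 at 0 in all T2 libraries and 1 in all T3 libraries. Markers of epidermis and cuticle (22 genes) summed to 123 to 210 FPKM in T2 and 198 to 266 FPKM in T3, and those of cork and russet (8 genes) to 11.2 to 16.4 and 15.4 to 22.2 FPKM. Markers of dividing cells (6 genes) summed to 2.27 to 3.36 FPKM in T2 and 0.59 to 1.40 FPKM in T3. In bulk skin, fewer cells of a type and less RNA per cell cannot be told apart.

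Protodermal factor 1 and a GDSL esterase/lipase were among the 15 largest falls of the DEGs. Of the 15 tested markers of epidermis and cuticle, 3 rose and 1 fell (median 0.34), beside 18.2% and 16.2% over all genes. The falls described here therefore do not stand for epidermal genes as a class. GDSL esterase/lipase LTL1-like (MD12G1252500, GDDH13 v1.1 chromosome 12 from 32163367 to 32165527), of a family of enzymes that act on ester bonds, had 86.4, 64.0 and 79.8 FPKM in T2 and 0.44, 0.60 and 0.30 FPKM in T3. Every T2 library stood far above every T3 library, and the mean fell 172-fold (log2 difference -5.74, standard error 0.37, limma adjusted p = 5.06e-09). At DAF30 the bagged libraries had held 103 to 200 FPKM. Protodermal factor 1 (MD05G1116900), a proline-rich protein of the epidermis, had 96.7, 59.5 and 34.0 FPKM in T2 and 0.79, 0.78 and 0.65 FPKM in T3. The T2 libraries were spread and the T3 libraries close together, with no overlap and a log2 difference of -5.09 (adjusted p = 2.68e-07).

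Proline-rich protein 4 (MD05G1116400), a protein of the cell wall whose gene lies 69.8 kb from protodermal factor 1 on chromosome 5, fell from 208, 96.8 and 45.5 FPKM in T2 to 2.22, 3.03 and 1.58 FPKM in T3 (log2 difference -4.93, adjusted p = 8.08e-06). Both genes had T2 replicate 1 highest and T2 replicate 3 lowest. The gene with the highest value in every T2 and T3 library, repetitive proline-rich cell wall protein 2 (MD02G1292200, named after its values were seen), went the same way. It had 8261, 10124 and 8161 FPKM in T2 and 1983, 1909 and 1372 FPKM in T3 (log2 difference -2.35, adjusted p = 0.000152, not called after quantile normalization), and took 40.2% to 48.6% of the summed FPKM of the table in T2 and 7.53% to 12.6% in T3. Its gene model overlaps that of MD02G1292400, which has the same description, so their reads may be shared.

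Membrane and signalling genes were also among the 15 largest falls. An omega-3 fatty acid desaturase of the endoplasmic reticulum (MD11G1072500), which makes linolenic acid from linoleic acid, had 127 to 165 FPKM in T2 and 3.81 to 4.08 FPKM in T3 (log2 difference -4.86, adjusted p = 8.1e-08), and its gene model overlaps those of MD11G1072300 and MD11G1072400. An aquaporin-like gene (MD10G1116500), a channel for water or small solutes, had 30.6 to 39.5 FPKM in T2 and 0.33 to 1.15 FPKM in T3 (log2 difference -4.32, adjusted p = 1.12e-09). Groups did not overlap for either gene. RALF-like 34 (MD02G1173500), a small secreted peptide of the kind that signals to receptor kinases, fell 12.7-fold (log2 difference -3.57), the major latex protein MLP-like 423 (MD16G1088600) 14.7-fold (log2 difference -3.78) and the exocyst component EXO70A1-like (MD12G1133300), which tethers secretory vesicles, 15.8-fold (log2 difference -3.38).

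Of 22 tested genes of suberin, cutin and wax, 3 rose, 2 fell and 17 did not pass, shares below the 18.2% higher and 16.2% lower over all genes. The list's median difference was 0.27, and the rises numbered 0 to 3 over the alternatives. The falls were cytochrome P450 86A8 (MD01G1064900), a fatty acid hydroxylase of cutin in Arabidopsis, from 10.8 to 18.1 FPKM in T2 to 1.78 to 4.39 FPKM in T3 (log2 difference -1.76, adjusted p = 0.000182), and HOTHEAD (MD09G1193200), also of cutin synthesis in Arabidopsis, from 1.56 to 2.94 FPKM to 0.01 FPKM or 0 (log2 difference -1.65). The rises were 3-ketoacyl-CoA synthase 19-like (MD07G1187400 and MD07G1187000), an enzyme that elongates fatty acids, and ABC transporter G family member 11-like (MD05G1042600), an exporter of cutin and wax components in Arabidopsis. The keywords of this list miss BAHD acyltransferase DCR-like (MD04G1147900), whose Arabidopsis relative is needed for cutin. It rose by more than these (log2 difference 5.11) and is described below.

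MD07G1187400 had 22.7, 25.0 and 16.5 FPKM in T2 and 53.0, 49.8 and 43.4 FPKM in T3 (log2 difference 1.17, adjusted p = 0.0154). The 2 synthase models overlap and count as separate members, and neither passed without T2 replicate 3 (limma adjusted p = 0.07 and 0.0526). MD05G1042600 rose from 0.53 to 0.99 FPKM to 2.40 to 4.40 FPKM (log2 difference 1.33, adjusted p = 0.0184) and did not pass without T2 replicate 2 or 3 or T3 replicate 1. A regulator of cutin and wax in Arabidopsis, WIN1-like (MD02G1030900, named after its values were seen), fell from 5.47 to 9.29 FPKM to 0.94 to 2.63 FPKM (log2 difference -1.61, adjusted p = 0.000994).

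Among 16 tested GDSL esterase/lipase genes, 5 fell and 0 rose (adjusted p of at most 0.05), against 16.2% lower over all genes, although the list's median was 0.08. Beside LTL1-like these included At5g33370-like (MD04G1234500), from 1.55 to 2.85 FPKM to 0.06 FPKM or 0 (log2 difference -1.63), and EXL3-like (MD15G1008900), from 6.17 to 7.76 FPKM to 0.89 to 2.18 FPKM (log2 difference -1.62), whose gene model overlaps that of the GDSL member MD15G1008800. The count of 5 was the same under all 15 alternatives of processing and left-out libraries.

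Several genes of the secondary cell wall rose from near 0. Of the 12 tested genes of secondary wall and vascular tissue, 9 rose and 0 fell, beside 18.2% and 16.2% over all genes. The median difference was 2.09 against -0.02 over all genes. Members such as MD12G1120100, MD04G1100000 and MD00G1061100 were below 1 FPKM in all T1, T2 and CK2 libraries. Their T3 libraries alone met the minimum for testing, so the minimum may have favoured rises in this count and median. A further 7 genes of the list were below the minimum. All 19 genes of the list in the table summed to 64.7 to 195 FPKM in T2 and 93.5 to 213 FPKM in T3, ranges that overlap. The near-0 start therefore holds for members described below and not for the list. Laccases, oxidases that can polymerize lignin, were counted with the peroxidases and are described here beside them. Laccase-4-like (MD04G1147700, chromosome 4 from 23574217 to 23577411) had 0.01, 0.02 and 0.03 FPKM in T2 and 47.4, 7.21 and 9.88 FPKM in T3 (log2 difference 4.0, standard error 0.52, adjusted p = 1.6e-05). Fasciclin-like arabinogalactan protein 11 (MD12G1120100), a wall protein of fibres, had 0.04 to 0.22 FPKM in T2 and 22.8, 3.84 and 9.29 FPKM in T3 (log2 difference 3.25, adjusted p = 1.52e-05). The T3 libraries shared an order in both genes, with replicate 1 highest, and lay above all T2 libraries.

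The same order held for a second fasciclin-like gene, 2 further laccases and COBRA-like protein 4. Fasciclin-like protein 11 of chromosome 4 (MD04G1100000) had 21.1, 3.20 and 5.30 FPKM in T3 (log2 difference 2.99). Laccase-12-like genes MD07G1227900 and MD01G1158900 had log2 differences of 2.89 and 2.78. COBRA-like protein 4 (MD06G1203800), which acts in cellulose deposition, had 27.6, 3.43 and 5.09 FPKM in T3 against 0.14 to 0.22 FPKM in T2 (log2 difference 2.97, adjusted p = 0.00031). Cellulose synthase subunits of the secondary wall, named after their values were seen, were subunit 4 (MD00G1061100 and MD05G1189700, log2 differences 2.22 and 2.23) and subunit 7 (MD15G1150300, 2.69). NAC domain-containing protein 43-like (MD06G1121400), a switch for secondary wall formation in Arabidopsis, had 3.43, 1.19 and 1.85 FPKM in T2 and 29.1, 12.5 and 12.5 FPKM in T3 (log2 difference 2.55, adjusted p = 3.75e-05).

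T3 replicate 1 held the highest value of each of these genes. Without it, 8 of the 12 secondary wall genes were still called higher. The summed level of the 22 xylem and fibre markers, 10.4 to 13.4 FPKM in T2 and 29.98 to 160 FPKM in T3, moved with these genes and shares members with them. Its part in the rise was not tested. In unbagged skin the same sum was 29.91 to 86.49 FPKM in CK2 and 18.4 to 71.15 FPKM in CK3, ranges that overlap that of T3.

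**Figure D2:**
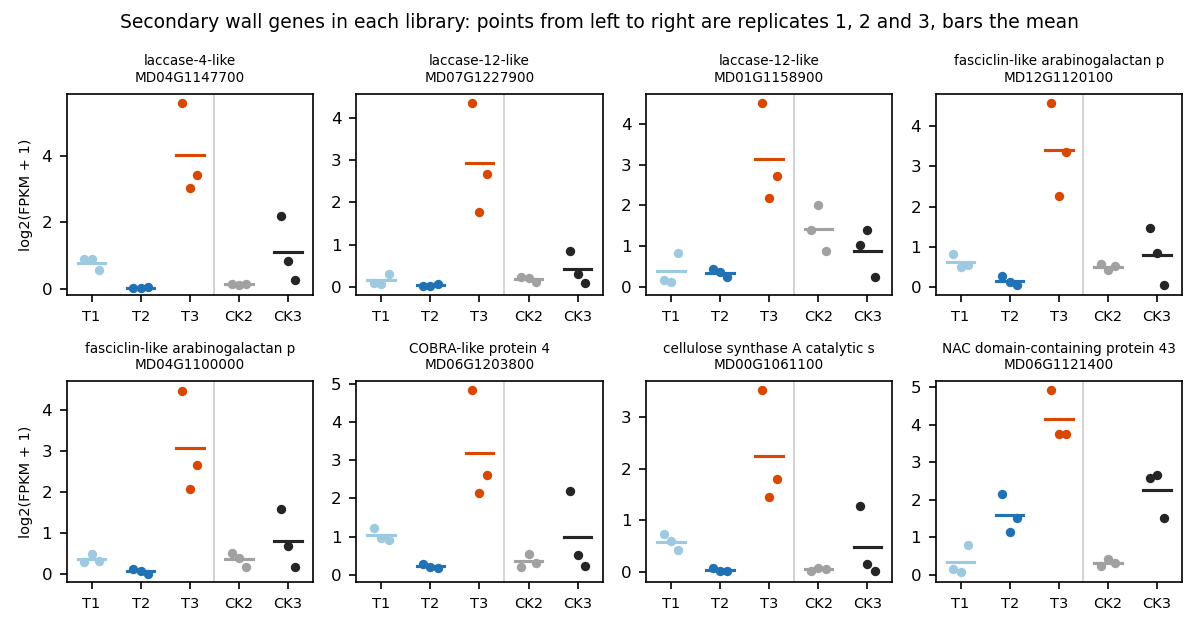
Level of 8 secondary wall genes, log2(FPKM + 1), in each library of bagged skin (T1, T2, T3) and unbagged skin (CK2, CK3), with a bar at the group mean. T3 stands above T2 in every panel, T3 replicate 1 (left point) is the highest, and CK3 reaches the T3 mean in no panel.

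Of 18 tested peroxidases and laccases, 5 rose and 4 fell, beside 18.2% and 16.2% over all genes. Without T3 replicate 1 or without T3 replicate 3, 2 fell. Peroxidase 42-like (MD05G1345800) had 13.8, 34.9 and 19.7 FPKM in T2 and 0.38, 0.66 and 0.41 FPKM in T3 (log2 difference -3.91, adjusted p = 1.89e-07), and laccase-15-like (MD01G1235100) had 5.24 to 8.53 FPKM in T2 and 0.04 to 0.23 FPKM in T3 (log2 difference -2.78, adjusted p = 2.52e-07). Neither gene had overlapping groups.

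Of 22 tested primary wall and pectin genes 3 rose and 2 fell (median 0.10), shares below the 18.2% and 16.2% over all genes. Xyloglucan endotransglucosylase/hydrolases, which cut and rejoin the xyloglucan of the wall, accounted for the largest rises. MD06G1027300 had 0.52, 0.59 and 0.44 FPKM in T2 and 13.3, 8.62 and 10.7 FPKM in T3 (log2 difference 2.95, adjusted p = 3.17e-06), and MD16G1014000 had 13.8 to 18.5 FPKM and 53.3 to 79.1 FPKM (log2 difference 2.01, adjusted p = 1.94e-05). The single cell division gene that passed, of 3 tested, was cyclin-U2-1-like (MD07G1113400), with 0.84 to 2.13 FPKM in T2 and listed at 0 in every T3 library (log2 difference -1.31, adjusted p = 0.000985).

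TIFY 9-like (MD16G1127400) and TIFY 10A (MD02G1096100), of the family of repressors that jasmonate removes and induces, both fell. TIFY 9-like had 32.5, 72.6 and 45.9 FPKM in T2 and 1.92, 1.34 and 2.93 FPKM in T3 (log2 difference -4.02, adjusted p = 3.82e-06). TIFY 10A had 38.8, 100 and 21.6 FPKM in T2 and 2.54, 1.63 and 2.61 FPKM in T3 (log2 difference -3.80, adjusted p = 1.95e-05). Both were highest in T2 replicate 2, and their groups did not overlap.

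Plastid 13-lipoxygenase 3-1 (MD09G1180900), of the first step of jasmonate synthesis, had 15.5, 23.3 and 73.4 FPKM in T2 and 2.52 to 4.73 FPKM in T3 (log2 difference -2.81, adjusted p = 0.000868). A further lipoxygenase (MD17G1167100) fell 5.13-fold (log2 difference -2.01, adjusted p = 0.00213), and T2 replicate 3 was highest in both. Plastid 13-lipoxygenase 2-1 (MD07G1004500) rose, from 127, 51.6 and 46.6 FPKM in T2 to 151, 119 and 291 FPKM in T3 (log2 difference 1.35, adjusted p = 0.0137). Its groups overlapped, its gene model overlaps 5 others, and it did not pass in the fit of the 6 libraries alone, after quantile normalization, or without T2 replicate 2, T2 replicate 3 or T3 replicate 3. In the list that holds these enzymes, of lipoxygenase, acyltransferase and terpene volatile genes, 4 of 15 fell and 3 rose, and 0 rose without T3 replicate 3. Shares over all genes were 16.2% lower and 18.2% higher. Polyphenol oxidase (MD05G1320800), the enzyme of tissue browning, had 82.3, 7.79 and 12.6 FPKM in T2, was at 0, 0.18 and 0.38 FPKM in T3 and had a log2 difference of -4.19 (adjusted p = 3.49e-05). Its T2 replicate 1 stood apart, and the other T2 libraries were still above all of T3.

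Of 17 tested genes with an ethylene keyword in their description 8 fell and 4 rose (median -0.18), against 16.2% lower and 18.2% higher over all genes. The falls count WIN1-like (MD02G1030900), given above with cutin and wax. ERF027-like (MD04G1067700), a transcription factor of the ethylene response factor family, had 5.64 to 12.4 FPKM in T2 and 0 to 0.43 FPKM in T3 (log2 difference -3.17, adjusted p = 1.85e-05). ERF017-like (MD02G1096500) fell 8.15-fold (log2 difference -2.73) and ERF109-like (MD10G1094700) 16.7-fold (log2 difference -2.56). Factors of this family act in many responses beside ethylene. Among the rises were the family member CRF2-like (MD14G1120000, log2 difference 1.75) and an oxidase homolog 3-like gene (MD02G1054900, log2 difference 1.59). 1-aminocyclopropane-1-carboxylate oxidase (MD09G1114800, named after its values were seen), the last enzyme of ethylene synthesis, fell from 9.53 to 13.8 FPKM to 2.70 to 5.6 FPKM (log2 difference -1.37, adjusted p = 0.0422), a call lost without any of the T2 libraries or T3 replicate 2 or 3 (adjusted p up to 0.137). EIN3-binding F-box protein 1-like (MD15G1171800), which marks the ethylene regulator EIN3 for breakdown in Arabidopsis, rose from 59.0, 50.9 and 125 FPKM to 270, 482 and 297 FPKM (log2 difference 2.21, adjusted p = 0.000152). This gene was counted with the ubiquitin ligase and F-box genes and not in the ethylene list.

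Of 98 tested transcription factors, 22 fell and 12 rose, against 16.2% lower and 18.2% higher over all genes. Myb4-like (MD17G1086700) fell 13.5-fold (log2 difference -2.59, adjusted p = 0.000181). Zinc finger protein ZAT5-like (MD03G1128800) rose from 1.01 to 1.28 FPKM to 9.61 to 18.7 FPKM (log2 difference 2.61, adjusted p = 2.79e-05), and dormancy-associated MADS box 1 (MD15G1384500) from 0.23 to 0.56 FPKM to 3.23 to 5.78 FPKM (log2 difference 2.02, adjusted p = 2.44e-05). In the list of other hormones 7 of 20 fell and 3 rose, and 4 fell without T3 replicate 3. The falls included auxin-responsive SAUR50 (MD10G1061300), with 2.21 to 3.41 FPKM in T2 and 0.08 to 0.36 FPKM in T3 (log2 difference -1.66), and chitin-inducible gibberellin-responsive protein (MD11G1229600), of the GRAS family (log2 difference -2.05).

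Of 39 tested ubiquitin ligase and F-box genes 9 fell and 8 rose, beside 16.2% and 18.2% over all genes, and 7 to 16 fell over the alternatives. RHA2A-like (MD01G1228600) fell from 16.1 to 22.8 FPKM to 0.62 to 1.82 FPKM (log2 difference -3.17, adjusted p = 1.6e-07), and the U-box ligases PUB23-like (MD14G1040300) and U-box 21-like (MD13G1017300) fell 12.2-fold and 12.5-fold. RNF181-like (MD16G1051600) was listed at 0 in all T1, T2 and CK2 libraries and had 9.99, 4.07 and 7.52 FPKM in T3 (log2 difference 2.96, adjusted p = 2.52e-07). F-box protein PP2-B15-like (MD04G1197700) had 0, 0.04 and 0.11 FPKM in T2 and 3.30, 16.9 and 19.8 FPKM in T3 (log2 difference 3.48, adjusted p = 3.17e-06). Receptor-like kinases had 15 lower and 4 higher of 89, a share of lower calls near that of all genes, and 8 lower without T3 replicate 3.

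Zinc transporters and other genes of metal handling rose. Of 15 tested genes of zinc, iron and copper handling, 6 rose and 1 fell (median 0.67), beside 18.2% and 16.2% over all genes. Under every alternative 6 or 7 were called higher. Zinc transporter 1-like (MD10G1227800), of the ZIP family that brings zinc and iron into the cytosol, had 0.63, 6.08 and 4.81 FPKM in T2 and 19.6, 323 and 127 FPKM in T3 (log2 difference 4.55, standard error 0.70, adjusted p = 7.52e-05). Its homologue on chromosome 5 (MD05G1247200) had 5.96, 16.02 and 11.95 FPKM in T2 and 61.4, 283 and 211 FPKM in T3 (log2 difference 3.75, adjusted p = 1.71e-05). Replicate 1 was the lowest library of both groups in each gene, and the lowest T3 library still exceeded the highest of T2.

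Zinc transporter 8-like (MD09G1140300, named after its values were seen) had 67.8, 154 and 122 FPKM in T2 and 345, 600 and 716 FPKM in T3 (log2 difference 2.27, adjusted p = 0.00143). Zinc transporter 4-like (MD08G1061900, likewise) rose 3.32-fold (log2 difference 1.66). Nicotianamine synthase (MD12G1205900), which makes a chelator that carries iron, zinc and copper, had 0.99, 1.56 and 2.13 FPKM in T2 and 49.1, 95.4 and 69.4 FPKM in T3 (log2 difference 4.79, standard error 0.28, adjusted p = 1.55e-09). All T3 libraries stood far above those of T2.

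Neighbouring iron genes on chromosome 4 moved in opposite directions. Ferritin-4 (MD04G1164500, 25512525 to 25515120), the iron store of plastids, had 99.2, 64.4 and 99.6 FPKM in T2 and 8.94, 20.6 and 9.60 FPKM in T3 (log2 difference -2.73, adjusted p = 1.9e-05). Mitoferrin-like (MD04G1164600, 25519055 to 25521238), whose relatives bring iron into mitochondria, begins 3.9 kb further on and had 0.05, 1.26 and 0.32 FPKM in T2 and 38.3, 72.4 and 61.8 FPKM in T3 (log2 difference 5.27, adjusted p = 6.04e-08). T2 and T3 libraries did not overlap in either gene.

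**Figure D3:**
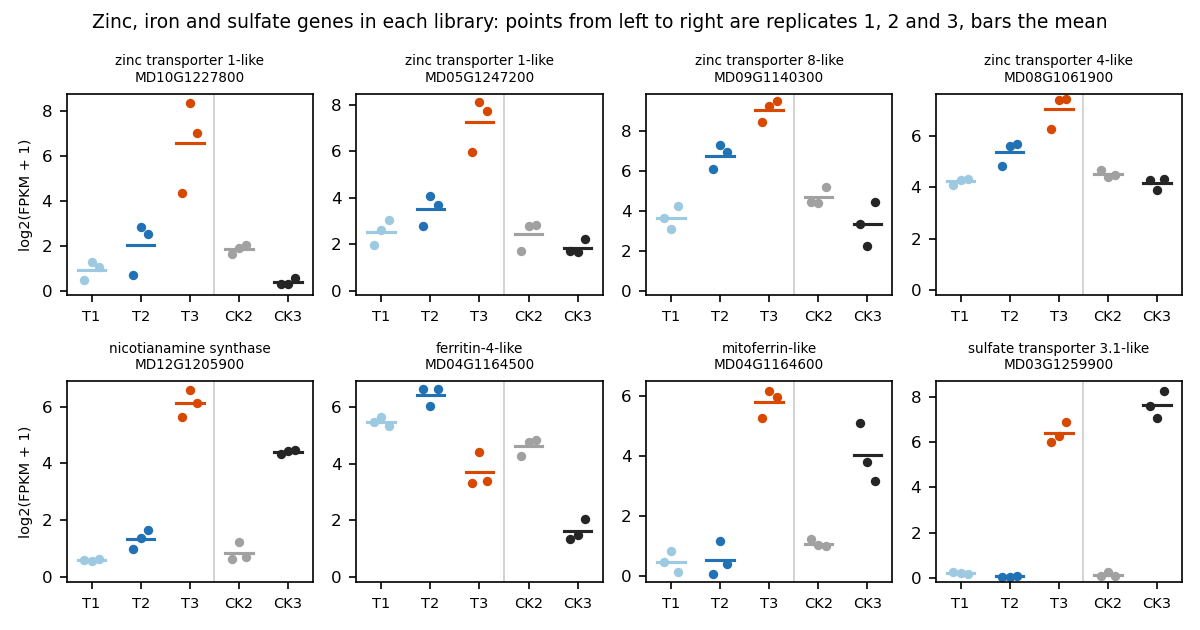
Level of 8 genes of zinc, iron and sulfate transport or metal handling, log2(FPKM + 1), in each library of bagged skin (T1, T2, T3) and unbagged skin (CK2, CK3), with a bar at the group mean. The 4 zinc transporters have their highest mean in T3 and a lower mean in CK3 than in CK2, whereas ferritin-4 is lower in T3 than in T2.

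Among all 52 tested aquaporins and membrane transporters, 15 rose and 3 fell, beside 18.2% and 16.2% over all genes. Sulfate transporter 3.1-like (MD03G1259900), which takes sulfate into plastids in Arabidopsis, had 0.04, 0.04 and 0.05 FPKM in T2 and 62.9, 75.7 and 116 FPKM in T3 (log2 difference 6.31, standard error 0.29, adjusted p = 1.1e-10). In unbagged skin it had 132 to 305 FPKM at DAF150.

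Of 19 tested genes of sugar, sorbitol and starch, 9 rose, 1 fell and 9 did not pass (median 0.91). Shares over all genes were 18.2% higher and 16.2% lower. In this list 6 rose without T3 replicate 2 or without T3 replicate 3. Sugar transporter N3-like (MD16G1125300), of the SWEET family that lets sugars out of cells, had 0.05, 0.07 and 0.25 FPKM in T2 and 18.9, 10.7 and 16.4 FPKM in T3 (log2 difference 3.83, adjusted p = 8.02e-09). Isoamylase 3 (MD15G1376800), which cuts the branches of starch, had 2.06 to 2.15 FPKM in T2 and 7.98 to 9.51 FPKM in T3 (log2 difference 1.64, adjusted p = 3.69e-05). Both genes had T3 libraries clear of T2.

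Sorbitol, a main sugar of transport in apple trees, is made by sorbitol-6-phosphate dehydrogenase in leaves and turned to fructose by sorbitol dehydrogenase in the fruit. Sorbitol dehydrogenase-like (MD01G1195300) fell from 7.60, 27.2 and 29.2 FPKM in T2 to 0.51, 0.51 and 0.12 FPKM in T3 (log2 difference -3.83, adjusted p = 3.67e-06), and its gene model overlaps MD01G1195000 and MD01G1195400. The NADP-dependent sorbitol-6-phosphate dehydrogenase MD10G1062300 rose from 0.44 to 0.68 FPKM to 2.21 to 3.49 FPKM (log2 difference 1.23, adjusted p = 0.00801) and MD05G1054800 from 0.02 to 0.07 FPKM to 1.54 to 2.62 FPKM (log2 difference 1.61, adjusted p = 0.00647). Both sorbitol-6-phosphate dehydrogenases had T3 libraries above all T2 libraries, at levels of a few FPKM.

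Of 13 tested genes of the light reactions, 4 rose, 1 fell and 8 did not pass, beside 18.2% higher and 16.2% lower over all genes. The list's median was -0.25. Chlorophyll a-b binding protein 151 (MD09G1122500) had 51.4, 53.5 and 55.2 FPKM in T2 and 302, 160 and 156 FPKM in T3 (log2 difference 1.86, adjusted p = 0.000192), its homologue MD17G1113400 rose 3.57-fold (log2 difference 1.81, adjusted p = 0.00265), and THYLAKOID FORMATION1 (MD17G1085500), of thylakoid assembly, had 9.01 to 12.2 FPKM in T2 and 53.7 to 66.0 FPKM in T3 (log2 difference 2.36, adjusted p = 8.38e-07). Among 17 tested genes of carbon fixation and photorespiration 0 rose and 2 fell (median -0.46), a share of falls below the 16.2% over all genes. A gene for the rubisco small subunit (MD17G1244400) had 196, 239 and 228 FPKM in T2 and 120, 35.6 and 93.4 FPKM in T3 (log2 difference -1.56, adjusted p = 0.0116, and 0.0773 without T3 replicate 2), and its activase (MD01G1137900, named after its values were seen) fell 2.08-fold (log2 difference -0.97, adjusted p = 0.0297), a call lost without T2 replicate 1 or 2 or T3 replicate 2 or 3.

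Genes of light responses were among the 15 largest rises. Early light-induced protein 1 (MD13G1200600), a chlorophyll-binding protein of light stress, had 9.03, 18.2 and 7.51 FPKM in T2 and 258, 122 and 185 FPKM in T3 (log2 difference 3.94, adjusted p = 1.51e-06). Root phototropism protein 2-like (MD03G1048900), of blue-light responses in Arabidopsis, had 0.19 to 0.43 FPKM in T2 and 12.6 to 37.3 FPKM in T3 (log2 difference 4.06, adjusted p = 3.1e-07). Neither gene had overlapping groups, and their unbagged levels at DAF150 were 299 to 684 FPKM and 59.9 to 157 FPKM. The list of circadian and light signalling, which holds neither, had 1 higher and 1 lower of 5 tested.

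Of 19 tested flavonoid genes 11 rose and 0 fell (median 0.94), beside 18.2% and 16.2% over all genes. Chalcone synthase (MD04G1003300), the entry enzyme of flavonoids, had 0.44, 0.12 and 0.53 FPKM in T2 and 5.02, 3.10 and 6.37 FPKM in T3 (log2 difference 2.07, adjusted p = 0.00145), and its gene model overlaps MD04G1003000, a polyketide synthase of the same list. Flavonoid glucosyltransferases MD09G1141200 and MD09G1140700 (UDP-glycosyltransferase 71A15), 2 genes of one region of chromosome 9, rose 7.54-fold and 6.21-fold (adjusted p = 0.0014 and 0.00127), with T3 replicate 3 highest at 24.8 and 37.3 FPKM. An anthocyanidin glucosyltransferase (MD07G1306900), which adds glucose to the red pigments, had 0 to 0.06 FPKM in T2 and 0 to 0.09 FPKM in T3.

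Of 36 genes that the study named from these libraries, 25 are in the table and were tested, and 3 rose or fell beside sorbitol-6-phosphate dehydrogenase (MD10G1062300). None of its transcription factors is in the table. Gene names here are the deposited descriptions. The paper labels LTL1-like (MD12G1252500) as a phospholipid: diacylglycerol acyltransferase and places MD10G1062300 in suberin biosynthesis. Of its 11 phenylpropanoid genes 1 fell, LTL1-like, and of its 5 suberin genes 0 were called, in limma at an adjusted p of at most 0.05. Suberin hydroxylase cytochrome P450 86A1 (MD03G1073600) had 0.95 to 1.45 FPKM in T2 and 1.86 to 2.39 FPKM in T3 (log2 difference 0.52, adjusted p = 0.567), and feruloyl transferase MD09G1007600, which joins ferulate to suberin, had 1.27 to 1.73 and 1.78 to 2.97 FPKM (log2 difference 0.37, adjusted p = 0.655). Of its 5 genes picked from RNA and protein together, peroxidase 4-like (MD03G1059200) rose from 22.8 to 44.5 FPKM to 53.0 to 103 FPKM (log2 difference 1.31, adjusted p = 0.0262) and peroxidase 3-like (MD17G1092400) fell from 0.70 to 2.28 FPKM to 0.11 to 0.31 FPKM (log2 difference -1.09, adjusted p = 0.0378). Both calls were lost in leave-one-out fits, with adjusted p up to 0.117 and 0.138.

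Of 50 tested defence proteins 13 rose and 5 fell (median 0.37), beside 18.2% and 16.2% over all genes. Without T3 replicate 3, 8 were called higher. Thaumatin-like protein 1a (MD09G1256300), a pathogenesis-related protein and fruit allergen, had 3.64, 22.2 and 23.1 FPKM in T2 and 451, 464 and 453 FPKM in T3 (log2 difference 5.06, adjusted p = 3.92e-05), and its gene model overlaps MD09G1256000. Major allergen Mal d 1.03C (MD13G1161200), of the pathogenesis-related class 10, had 3.32 to 5.83 FPKM in T2 and 73.1, 12.1 and 431 FPKM in T3 (log2 difference 3.77, adjusted p = 0.00321). T3 replicate 3 was highest and T3 replicate 2 lowest, as in Mal d 1.03G (MD16G1160100), with 33.0, 16.1 and 135 FPKM (log2 difference 3.65, adjusted p = 5.97e-05). The Mal d 1 genes of chromosome 13 overlap one another, and their values are not independent. Nematode resistance protein-like HSPRO2 (MD07G1215700) fell 7.14-fold (log2 difference -2.65, adjusted p = 0.000123).

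Some of the largest rises belonged to seed-type and stress genes. 11S globulin seed storage protein 2-like (MD08G1232200, chromosome 8 from 29874746 to 29877673) had 0.05, 0.26 and 0.29 FPKM in T2 and 183, 112 and 94.6 FPKM in T3 (log2 difference 6.72, standard error 0.47, adjusted p = 1.3e-08). The 2 seed markers in the table, searched as oleosin, vicilin, legumin and late embryogenesis genes, summed to at most 0.08 FPKM in any T3 library. Dehydrin Xero 1-like (MD02G1139900), a protein of drying tissue, rose from 3.26 to 6.18 FPKM to 25.1 to 72.4 FPKM (log2 difference 3.12, adjusted p = 9.2e-05), and an 11-beta-hydroxysteroid dehydrogenase 1B-like gene (MD14G1153000) from 0 to 0.02 FPKM to 18.2 to 39.7 FPKM (log2 difference 4.79, adjusted p = 1.98e-07). Of 4 tested genes of the seed and late embryogenesis list 2 rose, this dehydrin and dormancy-associated MADS box 1. Heat shock and chaperone genes had 3 higher and 1 lower of 11, and 0 higher without T3 replicate 1. Cytochrome P450 genes outside CYP86 had 4 higher and 0 lower of 28, and phenylpropanoid and monolignol enzymes 3 higher and 1 lower of 15. All tested genes had 18.2% higher and 16.2% lower.

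BAHD acyltransferase DCR-like (MD04G1147900), whose Arabidopsis relative is needed for cutin, had 13.4, 6.56 and 20.6 FPKM in T2 and 286, 306 and 1111 FPKM in T3 (log2 difference 5.11, adjusted p = 7.47e-07). Its gene lies 45.5 kb from laccase-4-like on chromosome 4. Prolyl endopeptidase-like (MD08G1005500), which cuts peptides after proline, had 3.41, 7.47 and 9.26 FPKM in T2 and 233, 631 and 405 FPKM in T3 (log2 difference 5.75, standard error 0.37, adjusted p = 5.06e-09). SRC2-like (MD02G1019900), a membrane-binding protein, had 1.38 to 2.65 FPKM in T2 and 53.9 to 68.9 FPKM in T3 (log2 difference 4.38, adjusted p = 2.22e-07), and a methyltransferase that uses S-adenosylmethionine (MD06G1227300) rose from 3.27 to 3.76 FPKM to 21.0, 180 and 170 FPKM (log2 difference 4.27, adjusted p = 8.38e-06). The groups of these 4 genes did not overlap.

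**Figure D4:**
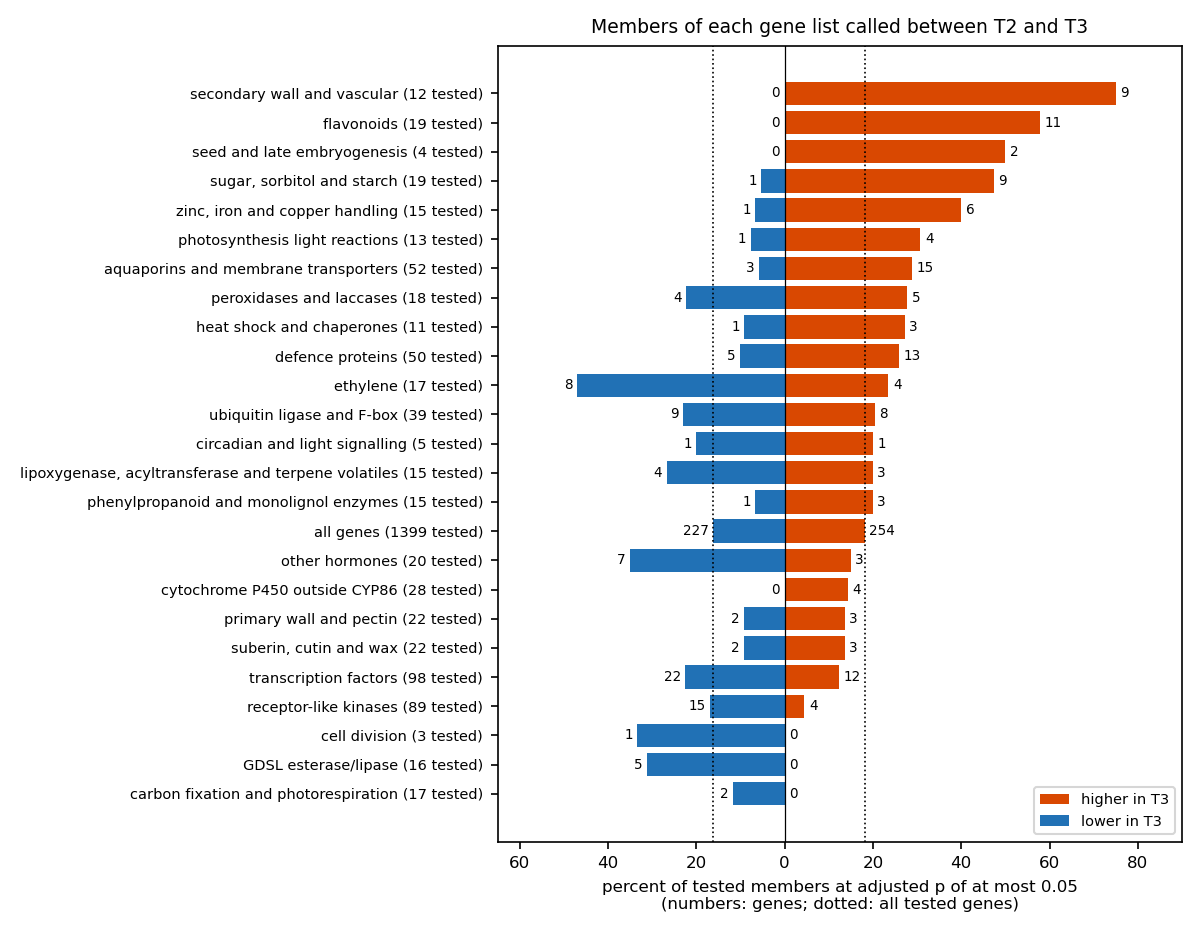
Percent of the tested members of each of 24 gene lists, and of all 1399 genes, that were higher (orange, to the right) or lower (blue, to the left) in T3 than in T2 (adjusted p up to 0.05), with the number of genes at each bar and dotted lines at the share of all genes. Secondary wall (9 of 12) and flavonoids (11 of 19) reach furthest to the right, and the ethylene keyword list (8 of 17) furthest to the left. Genes near 0 in T2 could pass the minimum for testing through T3 alone.

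Whether unbagged skin changed alike was asked of the CK2 and CK3 libraries, which share none with T2 and T3. The calls are still not independent, since both comparisons used the same estimate of each gene's spread over all 18 libraries. CK2 and CK3 also entered the authors' selection of the table by bagged against unbagged skin. In CK3 against CK2, limma called 248 genes higher (17.7%) and 556 lower (39.7%) at an adjusted p of at most 0.05. Of the 116 higher DEGs of bagged skin, 74 (63.8%) were called higher in unbagged skin as well, which is 29.8% of the 248. Of the 89 lower DEGs, 74 (83.1%) were called lower in unbagged skin, which is 13.3% of the 556. None of the 205 DEGs was called in the opposite direction in unbagged skin. The difference between the 2 changes was itself called, with the sign of the bagged change, for 50 of the 116 and 16 of the 89, and with the opposite sign for 5 and 10.

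The change in bagged skin differed from that in unbagged skin for 270 genes by the test of the difference itself. All tested genes had been selected for a difference between bagged and unbagged libraries, to which a change in T3 or CK3 alone can contribute. The difference, T3 minus T2 less CK3 minus CK2, was positive in 198 genes (14.2%) and negative in 72 (5.15%), around a median of 0.54 over all tested genes, since the unbagged median was -0.52. After median centring the calls split into 133 positive and 129 negative, and after quantile normalization into 105 and 142. The 72 negative calls became 43 without T2 replicate 2 and 47 without T3 replicate 2.

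Zinc transporter 1-like (MD10G1227800) had the largest positive difference among named genes, 6.01 (standard error 0.99, adjusted p = 0.000854). It had 2.13 to 3.03 FPKM in CK2 and 0.21 to 0.47 FPKM in CK3, so unbagged libraries never reached the lowest T3 library. SRC2-like (MD02G1019900) stayed between 0.93 and 5.31 FPKM in all CK2 and CK3 libraries (difference 4.56, adjusted p = 9.97e-05), and the methyltransferase MD06G1227300 between 0.36 and 1.63 FPKM (difference 4.87, adjusted p = 0.000665). Glucan endo-1,3-beta-glucosidases MD14G1079900 and MD14G1080100, 35.5 kb apart on chromosome 14, had differences of 4.55 and 4.73 (adjusted p = 0.00632 and 0.00872). They did not pass between T2 and T3 (adjusted p = 0.201 and 0.0768) and fell from 6.48 to 78.0 and 7.70 to 70.0 FPKM in CK2 to 0.09 to 2.30 and 0.21 to 4.41 FPKM in CK3. Mal d 1.03C (MD13G1161200) had a difference of 4.52 (adjusted p = 0.0207).

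The largest negative difference was in sorbitol-6-phosphate dehydrogenase (MD10G1062300), -4.35 (standard error 0.47, adjusted p = 3.62e-05), which rose from 0.76 to 1.21 FPKM in CK2 to 158, 108 and 45.2 FPKM in CK3 and reached 3.49 FPKM in bagged skin. Anthocyanidin 3-O-glucosyltransferase 2-like (MD07G1306900) had 72.3, 6.68 and 13.7 FPKM in CK3 and at most 0.09 FPKM in T3 (difference -3.79, adjusted p = 0.00233). A class II small heat shock protein (MD08G1068000), a lipid-transfer protein (MD12G1187500) and flowering-promoting factor 1-like (MD08G1131700) had differences of -3.58, -3.46 and -3.32 and did not pass between T2 and T3, and that of MD12G1187500 was lost when the fit held the libraries of the comparison alone. Proline-rich protein 4 (MD05G1116400) fell further in the bag (difference -3.35, adjusted p = 0.0121), from a T2 level above that of CK2, which had 2.66 to 11.4 FPKM.

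**Figure D5:**
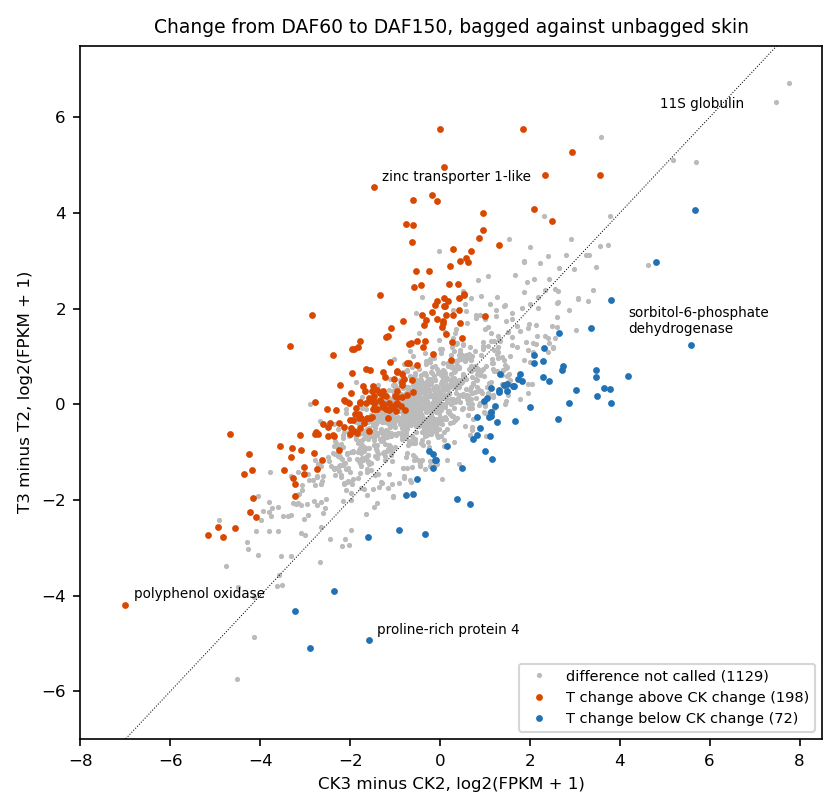
Difference from DAF60 to DAF150 on the log2(FPKM + 1) scale in bagged skin (vertical axis) against unbagged skin (horizontal axis) for the 1399 tested genes, with the line of equal change dotted. Genes whose 2 changes differ at an adjusted p of at most 0.05 are orange (198 above the line) or blue (72 below it), with zinc transporter 1-like high above the line and sorbitol-6-phosphate dehydrogenase far below it.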

How the data were processed

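RNA-seq libraries of bagged (T) and unbagged (CK) "Golden Delicious" skin were grouped by their labels. Sequencing was on a BGISEQ-500. After filtering, the authors aligned reads to the GDDH13 v1.1 genome using Bowtie2 (version not given in the sources used here). Then the authors deposited 1 FPKM value per gene and library, with 2 decimals. Neither the assignment of reads in overlapping models nor the use of strand is given in the sources used here. Columns of deposited log2 ratios and the deposited p-values and q-values hold the authors' own comparisons of T with CK. They served to test the selection of the table, where all 2856 genes reach a log2 ratio of 1 or -1 with a q-value no higher than 0.001, and their values were not used otherwise. Fragment totals are not in the table, so the depth behind a value is unknown and no counting interval was computed.

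The design assumed a table of all genes. Values were fitted as log2(FPKM + 1) in limma 3.58.1 (statmod 1.5.0, R 4.3.3) over all 18 libraries in 6 groups, with 12 residual degrees of freedom, a variance trend and robust moderation, and Benjamini-Hochberg adjustment over the 1399 genes tested. A fold change on this scale understates that of low genes. DEGs had an adjusted p no higher than 0.001 and a fold of 2 or more, while for list members and differences the adjusted p was up to 0.05. The labels give no batch. The procedure was tested on simulated data.

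Members and lists were chosen with earlier results of these data known. The 24 lists are keywords in the deposited descriptions, which are best matches and some from other species, and for 4 lists exclusions were added once words matched by spelling alone were seen. Named genes are the 15 largest rises and falls among DEGs without overlap and with a mean of at least 5 FPKM, the 6 largest differences from CK in each direction, the 3 members at each end of each list, and the genes of the study, 25 of which were in the table. No sequences are shown. Alternatives were pseudocounts of 0.1 and 0.5, other filters, centring, quantile normalization, fewer libraries in the fit, plain moderation, a replicate block and leaving out each library. Plots used matplotlib 3.10.9 (Python 3.11.15). All per-sample columns matched a sample (0 did not).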

Additional observations from a re-analysis of the deposited data

Results flagged for a closer look

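The change from DAF60 to DAF150 differed between bagged and unbagged skin by the test of the difference itself in limma. The direction was positive for 198 genes (14.2% of those tested) and negative for 72 (5.15%), in a table that the authors selected by bagged against unbagged skin. Among the 99 genes named here it was called for 47. The 6 largest in each direction were named because the difference was called, and some others after their values were seen. The 47 of 99 is therefore no separate result. Values below are that difference, T3 minus T2 less CK3 minus CK2, on the log2(FPKM + 1) scale, and 19 of the 47 did not pass under at least 1 of 21 alternatives. Of these, 12 were lost under 7 or more. They were root phototropism protein 2-like (MD03G1048900, under 14), nicotianamine synthase (MD12G1205900), COBRA-like protein 4 (MD06G1203800), Myb4-like (MD17G1086700) and PUB23-like (MD14G1040300, each under 12), cellulose synthase subunit 4 (MD00G1061100, under 11), the flavonoid glucosyltransferase MD09G1141200 (under 10), aquaporin-like (MD10G1116500) and peroxidase 42-like (MD05G1345800, each under 9), polyphenol oxidase (MD05G1320800, under 8), and protodermal factor 1 (MD05G1116900) and laccase-15-like (MD01G1235100, each under 7).

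Secondary wall genes that rose in bagged skin had differences of 3.04 for laccase-4-like (MD04G1147700), 2.66 and 3.33 for the laccase-12-like genes MD07G1227900 and MD01G1158900, 2.96 and 2.55 for the fasciclin-like genes MD12G1120100 and MD04G1100000, 2.34 for COBRA-like protein 4 (MD06G1203800) and 1.79 for cellulose synthase subunit 4 (MD00G1061100). The difference was not called for cellulose synthase subunits MD05G1189700 and MD15G1150300 or for NAC domain-containing protein 43-like (MD06G1121400), with limma adjusted p of 0.0826, 0.0716 and 0.397. Metal genes had 6.01 and 4.35 for the zinc transporter 1-like genes MD10G1227800 and MD05G1247200, 3.62 for zinc transporter 8-like (MD09G1140300), 2.02 for zinc transporter 4 (MD08G1061900), 1.23 for nicotianamine synthase (MD12G1205900) and 2.33 for mitoferrin-like (MD04G1164600).

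Surface genes that rose had 3.13 and 3.02 for the 3-ketoacyl-CoA synthases MD07G1187400 and MD07G1187000 and 3.11 for ABC transporter G family member 11-like (MD05G1042600). In unbagged skin each of these fell, with CK3 minus CK2 of -1.96, -1.83 and -1.78. Their T3 means, 48.8, 18.7 and 3.38 FPKM, did not exceed the CK3 means of 54.7, 19.0 and 3.61 FPKM. In T1 the means were higher, 82.6, 30.4 and 6.74 FPKM. Defence and other genes that rose had 4.52 and 2.70 for Mal d 1.03C and 1.03G (MD13G1161200 and MD16G1160100), 4.87 for the methyltransferase MD06G1227300, 4.56 for SRC2-like (MD02G1019900), 3.91 for prolyl endopeptidase-like (MD08G1005500), 2.46 for the 11-beta-hydroxysteroid dehydrogenase 1B-like gene MD14G1153000, 2.62 for F-box protein PP2-B15-like (MD04G1197700), 2.13 for the flavonoid glucosyltransferase MD09G1141200 and 1.34 for sugar transporter N3-like (MD16G1125300). The glucanases MD14G1079900 and MD14G1080100, which did not pass between T2 and T3, had 4.55 and 4.73.

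Genes that fell in bagged skin by less than in unbagged skin were polyphenol oxidase (MD05G1320800, 2.81), ERF017-like (MD02G1096500, 2.43), ERF109-like (MD10G1094700, 2.38), 1-aminocyclopropane-1-carboxylate oxidase (MD09G1114800, 2.81), Myb4-like (MD17G1086700, 1.97), PUB23-like (MD14G1040300, 2.07) and peroxidase 3-like (MD17G1092400, 2.22). Each started from a lower mean in T2 than in CK2, such as 34.2 and 194 FPKM for polyphenol oxidase. For 1-aminocyclopropane-1-carboxylate oxidase these means were 12.1 and 108 FPKM. Means in T3 and CK3 were low in each, at most 4.13 FPKM.

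Negative differences were found for genes that fell in bagged skin, protodermal factor 1 (MD05G1116900, -2.19), proline-rich protein 4 (MD05G1116400, -3.35), aquaporin-like (MD10G1116500, -1.10), peroxidase 42-like (MD05G1345800, -1.56), laccase-15-like (MD01G1235100, -1.19) and the activase MD01G1137900 (-1.97). The sign for aquaporin-like rests on the scale. Its mean went from 34.1 to 0.777 FPKM in bagged and from 9.22 to 0.0933 FPKM in unbagged skin. As a ratio of FPKM the unbagged fall was the larger, and the call was lost with pseudocounts of 0.1 and 0.5. Negative differences were also found for genes that rose in bagged skin, sorbitol-6-phosphate dehydrogenase (MD10G1062300, -4.35), root phototropism protein 2-like (MD03G1048900, -1.61) and RNF181-like (MD16G1051600, -1.83). Genes that did not pass between T2 and T3 were the anthocyanidin glucosyltransferase MD07G1306900 (-3.79), the heat shock protein MD08G1068000 (-3.58), the lipid-transfer protein MD12G1187500 (-3.46) and flowering-promoting factor 1-like (MD08G1131700, -3.32).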

How the results depend on the processing

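Among the 91 named genes called between T2 and T3, 80 kept the call under all 15 alternatives and 10 lost it under at least 1, with 34 lost calls in all. The remaining gene, MD07G1113400, was below the filter on T2 and T3 libraries and kept it elsewhere. The higher DEGs, 116, became 40 and the lower, 89, became 25 when the fit held the libraries of the comparison alone. The lower DEGs became 143 with a pseudocount of 0.1 and 139 after quantile normalization, and the lower genes at an adjusted p of at most 0.05, 227, became 348 and 354. The positive differences between bagged and unbagged change, 198, became 124 with the filter on T2 and T3 libraries and 105 after quantile normalization. The negative differences, 72, became 37 with that filter, 46 with a pseudocount of 0.1, 129 after median centring and 142 after quantile normalization. The causes were not tested. Leaving out 1 T2 or T3 library gave 50 to 88 lower DEGs and leaving out 1 CK2 or CK3 library 79 to 96, and any of these left 43 to 84 negative differences. The log2 difference of MD02G1292200 was 0.00 after quantile normalization, which sets the highest gene of each library to one value. Those of MD07G1306900 and MD08G1068000, not called, ran from -0.02 to 0.05 and from -0.02 to 0.93 over left-out libraries. Same-numbered libraries did not deviate together (r = 0.043, 0.059 and -0.107 between T2 and T3), and a replicate block gave 123 higher and 79 lower DEGs, with 0 named calls lost. Of 720 list counts, 85 moved by over 1.5 times. With 3 libraries a group and unknown depth, low levels cannot be told from 0.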
